A study of Mus musculus with 16 samples.

Results

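MiRNAs known from pancreatic islets, gut and surface epithelium were followed in the serum of male mice: mmu-miR-375-3p, mmu-miR-205-5p, mmu-miR-203-3p and the miR-200 family (mmu-miR-200a-3p, mmu-miR-200b-3p, mmu-miR-200c-3p and mmu-miR-141-3p). These are 7 of the 1881 mouse miRNAs on the array. They were chosen by name, with their measured signal and detection across the ages already known, above all the difference of mmu-miR-375-3p between 58 and 4 weeks. Their levels by age are therefore given as a description, without a test.

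Mice were 4, 8, 36 or 58 weeks old, with 4 mice at each age, and the study asked which serum miRNAs change with age. All were male and the labels name no treatment or genetic change in any group. Blood was drawn from the heart, and 1 ng of serum RNA from each mouse was labelled with Cy3 and read on 1 single-colour Agilent miRNA array. Because every array received the same mass of RNA, a signal stands for a share of the recovered RNA and not for an amount per volume of serum.

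MiRNAs are short RNAs that guide Argonaute proteins to messenger RNAs, mainly through a seed of 7 bases near the 5′ end, and lower the output of those messages. MiR-375 is abundant in the beta cells of pancreatic islets, where it restrains insulin secretion, and is also made by hormone-secreting cells of the gut. MiR-205 and miR-203 are made by stratified epithelium such as the epidermis, and the miR-200 family holds cells in the epithelial state by repressing the transcription factors Zeb1 and Zeb2. Such miRNAs reach the blood in vesicles, in protein complexes or from damaged cells.

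The mature sequences show why the miR-200 family falls into 2 groups and how alike its members are. RefSeq (mouse build GRCm38.p6) gave a sequence for 6 of the 7 members. Capitals mark the seed, bases 2 to 8 counted from 1 at the 5′ end, and mmu-miR-429-3p, a further relative read by its own probes, is shown with them.

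mmu-miR-205-5p: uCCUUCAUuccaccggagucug
mmu-miR-200a-3p: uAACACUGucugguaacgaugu
mmu-miR-200b-3p: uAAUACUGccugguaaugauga
mmu-miR-200c-3p: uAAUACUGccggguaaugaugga
mmu-miR-141-3p: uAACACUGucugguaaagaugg
mmu-miR-203-3p: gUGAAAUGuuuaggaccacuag
mmu-miR-429-3p: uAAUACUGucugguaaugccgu

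A first seed, AAUACUG, is shared by mmu-miR-200b-3p, mmu-miR-200c-3p and mmu-miR-429-3p, and a second, AACACUG, by mmu-miR-200a-3p and mmu-miR-141-3p. The 2 seeds differ at 1 base, C4U from mmu-miR-200a-3p to mmu-miR-200b-3p. Over 22 positions mmu-miR-200a-3p and mmu-miR-141-3p differ at 2 (C17A and U22G), as do mmu-miR-200b-3p and mmu-miR-200c-3p (U11G and A22G). How far a probe for one of them also binds its relative was not tested.

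In the same build, mmu-miR-200b-3p (chr4:156055685-156055706), mmu-miR-200a-3p (chr4:156054911-156054932) and mmu-miR-429-3p (chr4:156053916-156053937) lie on the minus strand within 1791 bases, inside the bounds of the lncRNA gene Gm13648. On chromosome 6, mmu-miR-200c-3p (chr6:124718324-124718346) and mmu-miR-141-3p (chr6:124717917-124717938) lie on the minus strand within 430 bases and overlap no other gene of the table. The locus of mmu-miR-205-5p (chr1:193507503-193507524, minus strand) falls within the lncRNA gene Mir205hg. The locus of mmu-miR-203-3p (chr12:112130927-112130948, plus strand) overlaps a further miRNA gene, Gm51289. Whether these loci are exonic or intronic was not analysed here.

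The arrays lay on 2 slides, slide 1 with the 4 and 8 week arrays and slide 2 with the 36 and 58 week arrays. A slide thus joins 4 with 8 weeks and 36 with 58 weeks, while for the remaining 4 pairs an effect of age and one of slide cannot be told apart. The scanner software, Feature Extraction, set an evaluation mark on 3 arrays: replicates 1 and 4 of the 4-week mice and replicate 4 of the 36-week mice. Their negative-control spots had SDs of 19.1, 7.45 and 59.3, against 1.82 to 4.45 on the other 13. Between 163 and 360 miRNAs were detected per array. Serum holds no cells, and the RNA sources checked were red cells, leukocytes, platelets and endothelium, and liver, whose markers (miR-451a, miR-223-3p, miR-126a-3p and miR-122-5p) were detected at every age. The muscle markers miR-206-3p, miR-143-3p and miR-145a-5p were detected on 0 of 16 arrays.

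Of the 7 members, 4 were detected on at least 1 array by the deposited call (57.1%), against 572 of all 1881 mouse miRNAs (30.4%). The islet miRNA mmu-miR-375-3p was detected on 13 of 16 arrays, on 2 of 4 at 4 weeks, 4 of 4 at 8 weeks, 3 of 4 at 36 weeks and 4 of 4 at 58 weeks. The epidermal mmu-miR-205-5p was detected on 12 of 16 arrays (2, 4, 2 and 4 of 4 in order of age). Within the miR-200 family, mmu-miR-200b-3p was detected on 7 arrays (2, 2, 1 and 2 of 4) and mmu-miR-200c-3p on 2 (4-week replicate 2 and 8-week replicate 2). Neither mmu-miR-200a-3p, mmu-miR-141-3p nor the keratinocyte miRNA mmu-miR-203-3p was detected on any of the 16 arrays. These 3 were not above background, which does not show that serum lacks them.

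Detection of the members went with the background of the arrays. On the 3 marked arrays 0 of the 7 members were detected, although up to 360 miRNAs were on the same arrays. On the 13 others, mmu-miR-375-3p was detected on all 13, mmu-miR-205-5p on 12 (all but 36-week replicate 3) and mmu-miR-200b-3p on 7. Both arrays at 4 weeks without mmu-miR-375-3p were marked ones, so the lower count of detections at that age cannot be told apart from their background. On 36-week replicate 4 the signals of mmu-miR-375-3p (24.3) and mmu-miR-205-5p (54.0) lay below the mean of the negative controls (63.1).

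**Figure D1:**
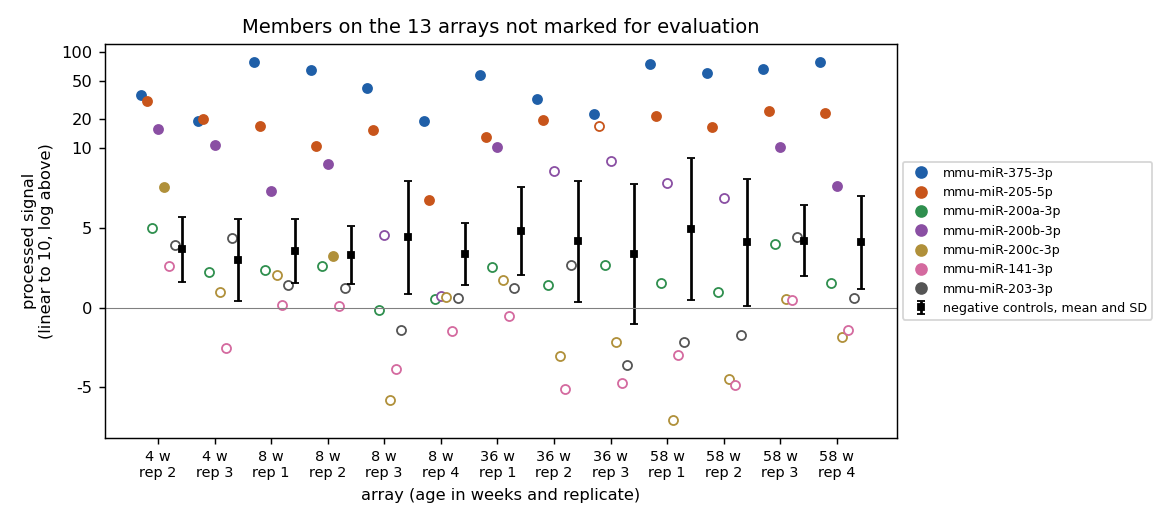
Processed signal of each of the 7 members on the 13 arrays not marked for evaluation (vertical axis linear to 10 and log above, in scanner units), with arrays along the horizontal axis by age and replicate. Filled points were detected and open points were not; black squares are the mean and SD of the negative-control spots of the same array. MiR-375-3p is filled on all 13 arrays, miR-205-5p on 12 and miR-200b-3p on 7. Heights of different miRNAs are not comparable, since each is read by its own probes.

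The level of mmu-miR-375-3p was low in the youngest mice and high in the oldest. Its processed signal, the background-subtracted spot intensity before any scaling, was 29.2, 35.9, 19.2 and 21.0 in replicates 1 to 4 at 4 weeks. It was 78.4, 66.1, 41.9 and 19.0 at 8 weeks. At 36 weeks it was 57.9, 32.5, 22.9 and 24.3, and at 58 weeks 75.9, 60.4, 66.9 and 79.5. Every mouse of 58 weeks thus lay above every mouse of 4 and of 36 weeks before scaling, while 8-week replicates 1 and 2 lay within the range of 58 weeks and 8-week replicate 4 just below that of 4 weeks. The values 29.2 and 21.0 at 4 weeks and 24.3 at 36 weeks were on marked arrays where mmu-miR-375-3p was not detected.

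Arrays were then brought to 1 common 75th percentile, taken over the 24 miRNAs that all of them detected, and values were put on a log2 scale. On that scale mmu-miR-375-3p measured 4.36, 5.07, 3.73 and 3.49 at 4 weeks, a mean of 4.16 ± 0.71 (SD, n = 4). It measured 6.16, 6.12, 5.75 and 3.80 at 8 weeks (5.46 ± 1.12, SD, n = 4) and 6.46, 4.76, 4.31 and 4.59 at 36 weeks (5.03 ± 0.97). At 58 weeks it measured 6.50, 6.65, 6.49 and 6.97 (6.65 ± 0.22). In order of their means the ages ran 4, 36, 8 and 58 weeks, with overlapping values among the first 3. All 4 mice of 58 weeks lay above the other 12, though by little: the lowest of them was at 6.49 and the highest of the other ages, 36-week replicate 1, at 6.46.

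**Figure D2:**
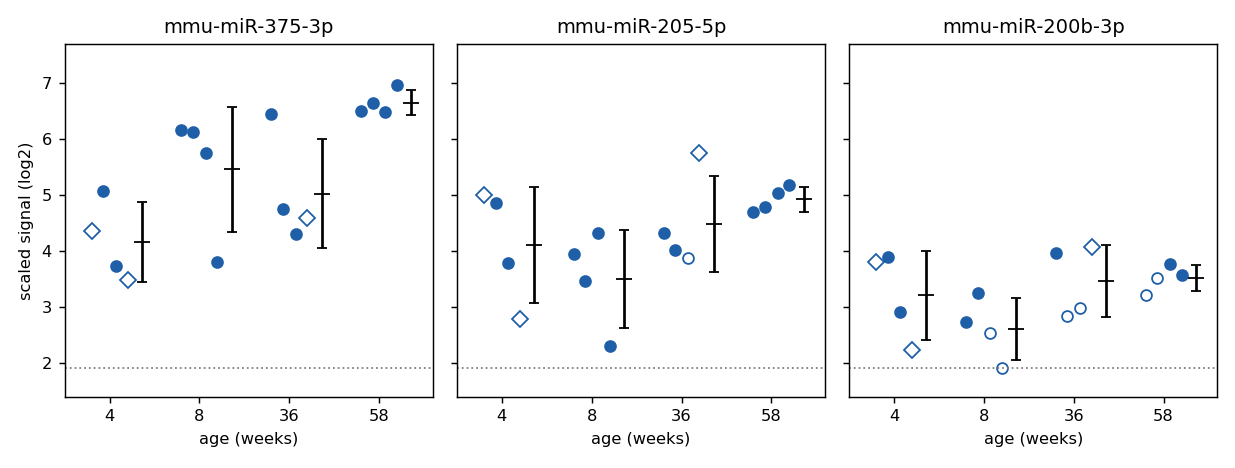
Scaled signal (log2) of miR-375-3p, miR-205-5p and miR-200b-3p against age in weeks, 1 point per mouse, with the mean and SD of the 4 mice beside them. Filled points were detected, open points were not, diamonds are the 3 arrays marked for evaluation, and the dotted line is the floor of 1.92. The 4 mice of 58 weeks lie between 6.49 and 6.97 for miR-375-3p, and their SD of 0.22 is smaller than the 0.71 to 1.12 of the younger ages. The SD at 58 weeks is also the smallest for miR-205-5p (0.22 against 0.86 to 1.03) and miR-200b-3p (0.23 against 0.55 to 0.79).

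Single spots of mmu-miR-375-3p followed the detection call. It has 30 spots per array, from 2 probes, and all 30 were well above background on each array of 58 weeks. At 4 weeks 0, 30, 15 and 0 spots were, at 8 weeks 30, 30, 21 and 29, and at 36 weeks 30, 15, 3 and 0. At 36 weeks the single high value, replicate 1, was also the only array of its age with all spots well above background.

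Across pairs of ages, differences are given with the standard error of a limma model fitted to all 285 miRNAs that were detected on at least 3 of 4 arrays of at least 1 age. Of the 7 members 2 met this filter, mmu-miR-375-3p and mmu-miR-205-5p. Within slide 1, mmu-miR-375-3p was 1.30 ± 0.61 (SE) higher on the log2 scale at 8 than at 4 weeks, while the median of the 285 was -0.72, and 99.6% of them had a lower difference. Within slide 2 it was 1.62 ± 0.61 higher at 58 than at 36 weeks, with a median of -0.52 and 97.9% of the 285 below it. Both within-slide differences of mmu-miR-375-3p were above 0 in all 30 alternatives run on them (0.57 to 2.22 for the first and 0.58 to 2.37 for the second). Many of these cannot change the estimates, such as other detection filters, a variance trend or leaving out arrays of other ages. Their sign was fixed by the estimate as reported. The upper ends of both ranges, 2.22 and 2.37, came from the deposited total gene signal, in which a miRNA that was not detected is held at a floor. The medians over the tested miRNAs did not keep their sign. For 8 against 4 weeks the median was 0.20 under quantile normalization and -0.32 without the 3 marked arrays. For 58 against 36 weeks it was 0.060 without 36-week replicate 4 or without all 3 marked arrays, 0.32 with array weights and -0.20 without 58-week replicate 3.

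Between slides, mmu-miR-375-3p differed by 2.49 ± 0.61 for 58 against 4 weeks, where the median of the 285 was -0.0031 and 99.6% lay below it. The difference was 0.87 for 36 against 4 weeks (median 0.32), 1.19 for 58 against 8 weeks (median 0.71) and -0.43 for 36 against 8 weeks (median 0.71), each with an SE of 0.61. The last of these, for 36 against 8 weeks, was smaller than its SE and turned to 0.22 with normexp background correction. Its fitted slope was 0.44 ± 0.16 per doubling of age, against a median of 0.12, and 1.64 ± 0.50 with slide as a block.

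Single mice moved some of these values. Without 8-week replicate 4, the low one of its age, the difference of mmu-miR-375-3p was 1.85 for 8 against 4 weeks, 0.64 for 58 against 8 weeks and -0.98 for 36 against 8 weeks. Without 36-week replicate 1 it was 0.39 for 36 against 4 weeks. For 58 against 4 weeks it ran from 2.27 to 2.79 with each array left out in turn, and was 2.25 without the 3 marked arrays, which leaves 2 mice at 4 weeks.

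**Figure D3:**
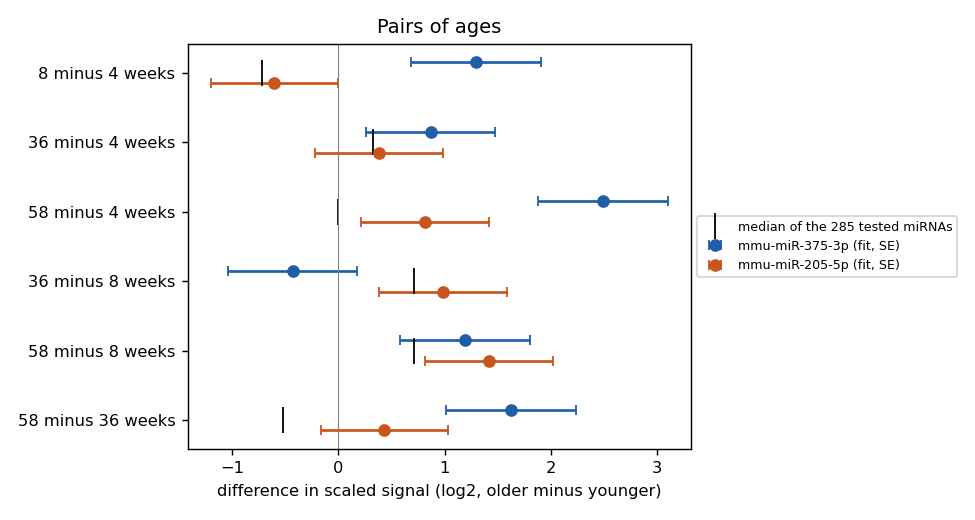
Fitted difference in scaled signal (log2, older minus younger, with SE) of miR-375-3p and miR-205-5p for the 6 pairs of ages, with the median of the 285 tested miRNAs as a black tick. The largest value is that of miR-375-3p for 58 minus 4 weeks (2.49), and for 8 minus 4 weeks miR-375-3p (1.30) and miR-205-5p (-0.60) lie on opposite sides of 0.

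Counts of calls are given beside their background, and nothing is read from them for members chosen on these values. At an adjusted p under 0.05 (limma, Benjamini-Hochberg over the 285), 0 of the 2 tested members passed in any of the 8 comparisons, and 5 of their 16 unadjusted p-values were under 0.05, against 172 of 2280 over all tested miRNAs. Among all 285, 1 miRNA (0.351%) passed for the slope, for any difference between ages, for 36 against 4 weeks and for 58 against 4 weeks, where 25, 13, 10 and 13 unadjusted p-values were under 0.05. In the other 4 pairs 0 of 285 passed (0%), with 6 unadjusted p-values under 0.05 for 8 against 4 weeks, 85 for 36 against 8, 15 for 58 against 8 and 5 for 58 against 36. All 4 mice of 58 weeks lay above all 4 of 4 weeks for 11 of the 285 (3.86%), above all 4 of 36 weeks for 11 (3.86%) and above all 4 of 8 weeks for 22 (7.72%), and mmu-miR-375-3p was in each of these sets. They lay above all other 12 mice for 2 of the 285 (0.702%), mmu-miR-375-3p among them.

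Each probe of mmu-miR-375-3p by itself gave the same order of mean levels, 4, 36, 8 and 58 weeks. With only the brightest probe of each miRNA, the lowest mouse of 58 weeks (6.77) lay below the highest of 36 weeks (6.81). Probe A_54_P1511 read 7.02 to 25.0 in processed signal at 4 weeks and 38.2 to 51.9 at 58 weeks. Probe A_54_P4392 read 26.2 to 47.9 and 82.5 to 107.1. The scaled difference of 58 against 4 weeks was 2.92 by the first and 2.35 by the second, that of 58 against 36 weeks 2.22 and 1.35, and that of 8 against 4 weeks 1.68 and 1.18. On 36-week replicate 4, the array with the highest background, the probes disagreed, at -14.0 and 62.6.

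**Figure D4:**
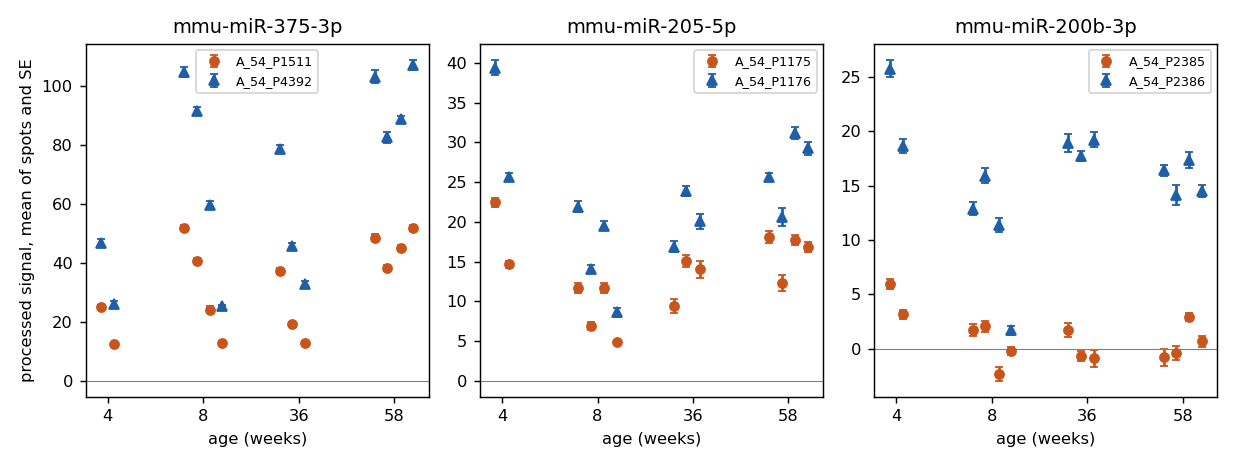
Processed signal (mean of spots with SE, scanner units) of each probe of miR-375-3p, miR-205-5p and miR-200b-3p against age in weeks, on the 13 arrays not marked for evaluation. Both probes of miR-375-3p and of miR-205-5p lie above 0 on every array shown, while for miR-200b-3p A_54_P2386 does and A_54_P2385 stays between -2.33 and 5.97.

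The epidermal mmu-miR-205-5p showed a different order of ages, with its low point at 8 weeks. A lower scaled mean at 8 than at 4 weeks was shared by 229 of the 285 tested miRNAs. The processed signal of mmu-miR-205-5p was 45.6, 30.9, 20.2 and 12.9 at 4 weeks and 16.8, 10.5, 15.6 and 6.74 at 8 weeks. It was 13.2, 19.5, 17.0 and 54.0 at 36 weeks and 21.8, 16.5, 24.4 and 23.0 at 58 weeks. The highest values, 54.0 on 36-week replicate 4 and 45.6 on 4-week replicate 1, were on marked arrays where it was not detected.

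After scaling, mmu-miR-205-5p measured 5.0, 4.86, 3.80 and 2.79 on the log2 scale at 4 weeks (4.11 ± 1.03, SD, n = 4) and 3.94, 3.47, 4.32 and 2.30 at 8 weeks (3.51 ± 0.88). It measured 4.32, 4.02, 3.88 and 5.75 at 36 weeks (4.49 ± 0.86) and 4.70, 4.78, 5.04 and 5.18 at 58 weeks (4.92 ± 0.22). In order of means the ages ran 8, 4, 36 and 58 weeks, and neighbours in that order overlapped. All 4 mice of 58 weeks lay above all 4 of 8 weeks, as for the 22 miRNAs counted above. This order held in 5 of the 8 ways of making the levels and was lost without scaling, under quantile normalization and with the deposited total gene signal. Among the 5, a lower or higher floor left the lowest value of 58 weeks and the highest of 8 weeks as reported.

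Within slides, mmu-miR-205-5p was -0.60 ± 0.60 (SE) apart between 8 and 4 weeks and 0.43 ± 0.60 apart between 58 and 36 weeks, neither difference larger than about its SE. Between slides the differences were 0.38 for 36 against 4 weeks, 0.82 for 58 against 4, 0.98 for 36 against 8 and 1.42 for 58 against 8, each with an SE of 0.60. The share of the 285 tested miRNAs with a lower difference than mmu-miR-205-5p was 54.4% for 8 against 4 weeks, 52.3% for 36 against 4, 53.7% for 36 against 8, 63.5% for 58 against 8, 81.4% for 58 against 36 and 95.1% for 58 against 4. For 36 against 4 weeks the sign turned without 4-week replicate 4 (-0.058), without 36-week replicate 4 (-0.035) and without all 3 marked arrays (-0.25). The sign of mmu-miR-205-5p also turned with the processing. Without scaling, the difference was -0.21 for 58 against 4 weeks and -0.054 for 58 against 36. Under quantile normalization it was 0.78 for 8 against 4 weeks, and the 1.42 for 58 against 8 weeks was 0.065. Levels under quantile normalization had a floor of 3.89, where the lowest values of mmu-miR-205-5p at 4 and at 36 weeks lay.

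In the miR-200 family, mmu-miR-200b-3p had the most detections, and its signal came from 1 of its 2 probes. Its processed signal was 20.1, 15.9, 10.9 and 8.77 at 4 weeks and 7.30, 9.01, 4.53 and 0.739 at 8 weeks. It was 10.3, 8.56, 9.20 and 16.9 at 36 weeks and 7.80, 6.88, 10.2 and 7.60 at 58 weeks. Values of all ages overlapped, and the scaled means were 3.21 ± 0.79 (SD, n = 4), 2.61 ± 0.55, 3.47 ± 0.65 and 3.52 ± 0.23 on the log2 scale in order of age. The probes of mmu-miR-200b-3p disagreed: A_54_P2386 had a median of 17.6 over the 16 arrays (1.68 to 64.2), and A_54_P2385 one of -0.28 (-30.3 to 5.97).

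For mmu-miR-200c-3p, which shares the seed of mmu-miR-200b-3p, the signals of the 2 arrays with detection were 7.59 (4-week replicate 2) and 3.26 (8-week replicate 2). Over all 16 arrays its signal ran from -129.5 to 7.59. The signals of mmu-miR-200a-3p ran from -12.5 to 4.97, of mmu-miR-141-3p from -66.9 to 2.59 and of mmu-miR-203-3p from -66.6 to 4.44. None of these 4 reached the filter for testing, and neither did mmu-miR-200b-3p.

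By seed, the miRNAs with AAUACUG were detected on 7 (mmu-miR-200b-3p), 3 (mmu-miR-429-3p) and 2 arrays (mmu-miR-200c-3p), and those with AACACUG, mmu-miR-200a-3p and mmu-miR-141-3p, on 0. By locus, the miRNAs of chromosome 4 were detected on 7 (mmu-miR-200b-3p), 3 (mmu-miR-429-3p) and 0 arrays (mmu-miR-200a-3p), and those of chromosome 6 on 2 (mmu-miR-200c-3p) and 0 (mmu-miR-141-3p). Each is read by its own probes, so these counts do not compare the levels of the miRNAs.

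Other miRNAs of epithelium, gut and pancreas were read from a list of 28, of which 26 are on the array. Of these 5 were detected on at least 1 array: miR-429-3p, the gut miRNAs miR-192-5p, miR-194-5p and miR-215-5p, and the pancreatic miR-148a-3p. Among the 9 other arms and relatives of the members on the array, miR-429-3p alone was detected, on 1 mouse at each of 4, 8 and 58 weeks. The other arm of mmu-miR-375-3p, mmu-miR-375-5p, was detected on none. Of the acinar and islet miRNAs in the list, miR-7a-5p, miR-7b-5p, miR-216a-5p, miR-216b-5p and miR-217-5p were likewise detected on none.

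The gut miRNAs miR-192-5p and miR-215-5p met the filter, and 0 of these 2 passed in any of the 8 comparisons (limma, 1 of 16 unadjusted p-values under 0.05). MiR-192-5p, abundant in liver and intestine, measured 5.21 ± 0.99 (SD, n = 4), 4.47 ± 1.08, 5.48 ± 0.79 and 5.91 ± 0.19 on the log2 scale in order of age. Its difference of 0.70 ± 0.61 (SE) for 58 against 4 weeks did not pass (limma, adjusted p = 0.998), nor did 1.44 ± 0.61 for 58 against 8 weeks (limma, adjusted p = 0.408). MiR-215-5p, which shares its seed with miR-192-5p, measured 4.11 ± 0.68, 3.27 ± 1.01, 3.21 ± 1.64 and 4.77 ± 0.44. Its difference of 0.66 ± 0.73 for 58 against 4 weeks did not pass (limma, adjusted p = 0.998), nor did 1.55 ± 0.73 for 58 against 36 weeks (limma, adjusted p = 0.717). Both gut miRNAs had means at 8 weeks below those at 4 weeks, as did 229 of the 285 tested miRNAs, mmu-miR-205-5p among them, while mmu-miR-375-3p was among the 56 with a higher one.

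Over the 16 arrays, the tested miRNAs whose scaled level was most like that of mmu-miR-375-3p were miR-139-5p (Pearson r = 0.728), miR-146a-5p (r = 0.727) and the myeloid miR-223-3p (r = 0.670). For mmu-miR-205-5p they were miR-342-3p (r = 0.910), the lymphocyte miRNA miR-150-5p (r = 0.883) and miR-192-5p (r = 0.876). The r between mmu-miR-375-3p and mmu-miR-205-5p was 0.488. Over the 13 arrays not marked, these values were 0.845, 0.629 and 0.767 for mmu-miR-375-3p, 0.870, 0.889 and 0.885 for mmu-miR-205-5p, and 0.678 between the members. The points share arrays, scale factors and background, so these correlations describe the arrays and carry no p.

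Beside mmu-miR-375-3p, some other measures also differed between 58 and 4 weeks, and others overlapped. The summed scaled signal of the 3 leukocyte markers miR-142a-3p, miR-223-3p and miR-150-5p was 310.1 to 421.0 at 4 weeks, 105.0 to 601.6 at 8, 168.1 to 741.3 at 36 and 586.5 to 658.5 at 58 weeks, and did not overlap between 4 and 58 weeks. That of the 3 erythrocyte markers (miR-451a, miR-144-3p and miR-486a-5p) was 4238 to 7493 at 4 weeks and 3576 to 6774 at 58 weeks, which overlap. Singly, scaled levels of miR-150-5p overlapped between 4 and 58 weeks, and those of miR-142a-3p and miR-223-3p did not. Before scaling, the median signal of each leukocyte marker was lower at 58 than at 4 weeks. It was 334.7 against 394.7 for miR-223-3p, 59.5 against 69.9 for miR-142a-3p and 40.3 against 43.4 for miR-150-5p. The 75th percentile used for scaling had lower means at older ages, from 9.99 on the log2 scale at 4 weeks to 8.96 at 58 weeks (difference -1.03, 2-sided exact permutation p = 0.0286, the smallest that 4 against 4 arrays allow, adjusted p = 0.103 over 6 pairs). Without scaling, the difference of mmu-miR-375-3p for 58 against 4 weeks was 1.46 and the median of the tested miRNAs -0.95. The part of leukocyte RNA and of the scaling in the result was not tested.

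The size of this difference varied with the processing. It was 3.41 when the deposited total gene signal was used, 2.21 under quantile normalization and 1.37 with normexp background correction, which adds 50 to each signal. The deposited total signal is a fixed small value wherever a miRNA was not detected, so undetected arrays sat at the floor of that setting. That floor was 0.846 on the log2 scale, and the lowest level of mmu-miR-375-3p at 4 weeks lay there. Under quantile normalization its lowest level at 4 weeks lay at a floor of 3.89. The part of these floors in the size of the difference was not tested. Under normexp the median of the tested miRNAs was 0.45, so that mmu-miR-375-3p lay 0.92 above it, against 2.49 as reported and 2.41 without scaling. In all 8 ways of making the levels, the 4 mice of 58 weeks lay above the 4 of 4 weeks for mmu-miR-375-3p. They lay above those of 36 weeks in 5 of the 8 and above those of 8 weeks in 6 of the 8. The lower and the higher floor left its levels as reported, so these ways repeat the reported one.

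**Figure D5:**
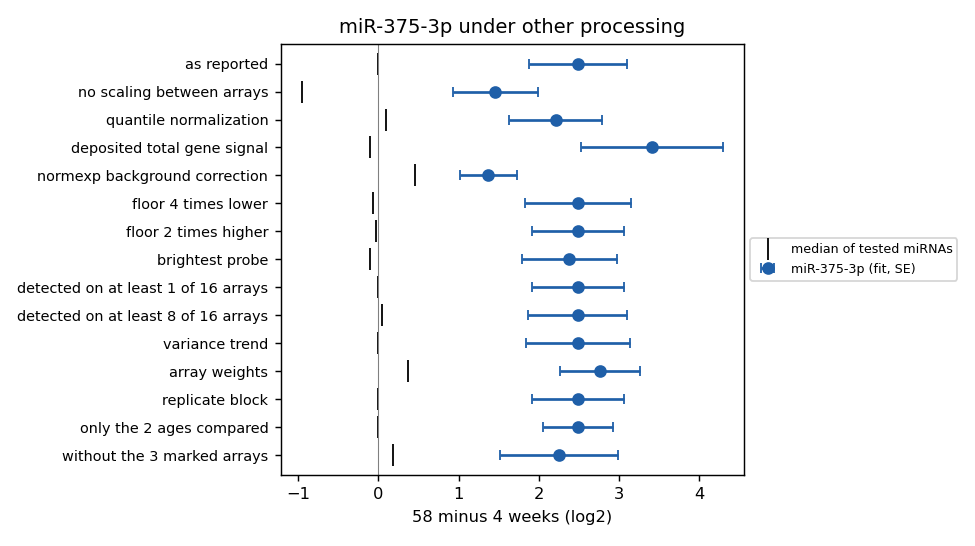
Fitted difference of miR-375-3p between 58 and 4 weeks (log2, with SE) under each way of processing and with the 3 marked arrays left out, with the median of the tested miRNAs as a black tick. Values run from 1.37 with normexp to 3.41 with the deposited total signal, and each lies above the median of its own setting. The deposited total signal holds miRNAs that were not detected at a floor.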

How the data were processed

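Serum RNA of 16 male mice was read on 1 single-colour array each. Per the submitters' processing notes, signals were made with Agilent Feature Extraction 11.5 (11.5.1.1 per the file headers). The deposited values are the background-subtracted intensity of each spot, with flags and a detection call per miRNA, and the file headers record no scaling of arrays to each other. Spots with an outlier flag were dropped. Intensity was averaged over spots of a probe and then over probes of a miRNA. Arrays were scaled to an equal 75th percentile of the 24 miRNAs that all 16 arrays detected. Values under a floor of 3.79, the median over arrays of the lowest positive scaled signal among detected miRNAs, were raised to it, and log2 of the deposited and scaled intensity was used. A miRNA was tested if detected on at least 3 of 4 arrays of 1 age. Age comparisons used limma 3.58.1 (R 4.3.3; lmFit and eBayes on all 16 arrays, with 1 mean per age or a slope on log2 age), with Benjamini-Hochberg adjustment and a threshold of 0.05. The fit was tried on simulated data with noise drawn independently for each array, which these arrays need not follow. The number of arrays limits the precision. With 1 array per mouse, p-values rest on a spread that joins differences between mice and between arrays. Scale factors were compared by exact permutation. Named are all members, the tested miRNAs of the further list and the 3 tested miRNAs most correlated with each member detected on at least 8 arrays. Members and lists were chosen with earlier results of these data known. The labels give replicate numbers 1 to 4 at each age but describe separate mice, so the numbers were not used as a pairing. Deviations of same-numbered arrays correlated at -0.90 to 0.81 (median -0.30), and those of other arrays at -0.92 to 0.93 (median -0.22). So wide a spread cannot exclude a pairing. Alternatives numbered 31, of which 16 left out 1 array each. Leaving out the 3 marked arrays together was chosen after seeing the data. Normexp used the median spot signal. Sequences and loci are from RefSeq tables of GRCm38.p6.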

Additional observations from a re-analysis of the deposited data

Results flagged for a closer look

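Among the 32 groups of 4 arrays checked (5 miRNA levels and 3 array measures at each of 4 ages), 2 held an array far from the others, where chance gives about 1.6. Both concern the SD of the negative-control spots. At 36 weeks it was 59.3 on replicate 4, an array on which no member was detected. At 8 weeks it was 3.54 on replicate 3, where miR-375-3p was detected with 21 of 30 spots well above background and miR-205-5p with 0 of 30. No level of miR-375-3p, miR-205-5p or miR-200b-3p stood apart from its age by this measure. Replicate 4 at 8 weeks came close for miR-375-3p, at 3.80 against 5.75 to 6.16 in the other mice of its age.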

How the results depend on the processing

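The difference of miR-375-3p between 58 and 4 weeks stayed above 0 in all 30 alternatives run on it. It was 1.46 without scaling, 1.37 with normexp, 3.41 with the deposited total signal, which holds undetected miRNAs at a floor, and 2.27 to 2.79 with 1 array left out. Many of the alternatives cannot change it, such as other detection filters, a variance trend or leaving out arrays of 8 or 36 weeks. Their sign was fixed by the estimate as reported. The cause was not tested. The slope of miR-375-3p was 1.64 with slide as a block, and its difference for 36 against 8 weeks turned to 0.22 with normexp.

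Signs of miR-205-5p turned more often: its slope was -0.21 with slide as a block; 8 against 4 weeks was 0.78 with quantile normalization and 0.080 with total signal; 36 against 4 weeks was -0.16 without scaling, -0.41 with total signal, -0.25 without the 3 marked arrays, and -0.058 to 0.68 with 1 array left out (negative, -0.058 and -0.035, without 4-week replicate 4 and 36-week replicate 4). Without scaling, 58 against 4 weeks was -0.21 and 58 against 36 weeks -0.054, and 36 against 8 weeks was -0.66 with quantile normalization and -0.49 with total signal. The cause was not tested.

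Of the tested miRNAs, the number that passed was as follows, with 1 as reported for the first 4 comparisons and 0 for the rest. For the slope it was 6 without scaling, 0 with quantile normalization, total signal, slide as a block or detection on at least 8 arrays, 22 with normexp, 8 with the brightest probe, 184 with array weights and 156 without the marked arrays. For any difference it was 3 without scaling, 4 with the brightest probe, 2 with detection on at least 1 array, 203 with array weights and 8 without the marked arrays, and 0 with quantile normalization, total signal, normexp, a higher floor, detection on at least 8 arrays, a variance trend or slide as a block. For 36 against 4 weeks it was 3 without scaling, 4 with the brightest probe, 2 with detection on at least 1 array, 6 with array weights and 5 without the marked arrays, and 0 with quantile normalization, total signal, normexp, detection on at least 8 arrays or only the 2 ages in the fit. For 58 against 4 weeks it was 3 without scaling, 2 with a higher floor or detection on at least 1 array, 4 with the brightest probe or only the 2 ages, 151 with array weights and 35 without the marked arrays, and 0 with quantile normalization, total signal, normexp or detection on at least 8 arrays. For 8 against 4 weeks 1 passed with detection on at least 1 array. With array weights 143 passed for 36 against 8 weeks, 189 for 58 against 8 and 18 for 58 against 36. Leaving out 1 array gave 1 to 2 for the slope, 0 to 2 for any difference and 36 against 4 weeks, 0 to 3 for 58 against 4 and 0 to 1 for 58 against 8.

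Of the 2 tested members, 1 passed for the slope with normexp (22 of all 285 did) and 2 with array weights (184 of the 285). With array weights 2 passed for any difference and for 58 against 4 weeks (203 and 151 of the 285). There 1 passed for 58 against 8 and 1 for 58 against 36 weeks (189 and 18 of the 285). For 58 against 4 weeks 1 passed with only the 2 ages (4 of the 285). With 1 array left out 0 to 1 did, the 1 being miR-375-3p without 8-week replicate 4 (2 of the 285). As the members were chosen on these values, nothing is read from these counts. Of the 2 other epithelial and gut miRNAs tested, array weights passed 1 for the slope, 1 for any difference and 2 for 58 against 8 weeks.

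With the replicate number as a block, miR-375-3p differed by 2.49 between 58 and 4 weeks, and 1 miRNA passed for the slope and 0 for any difference, 36 against 4 and 58 against 4 weeks. A percentile over all miRNAs was not run, as it was not above 0 on 1 array, and slide could not be fitted as a block for pairs of ages on different slides. Signals of most members lie near background, which limits what these arrays resolve.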
